A study of Homo sapiens with 8 samples.

Results

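The genes described here are 7 of the EGF receptor family, chosen by name: the receptors EGFR, ERBB2 and ERBB3 and the ligands AREG, EREG, HBEGF and TGFA. All 7 were found among the 14668 genes counted in T3M4 cells, an established line from a human pancreatic tumour. The sgMETTL13 cells expressed a guide RNA against METTL13, and the sgControl cells expressed a guide with no target. Cells of both kinds went without serum for 18 h and then received 10% FBS for 2 h before lysis. Poly(A) RNA-seq measured mRNA. Ribosome profiling, in which a puromycin analog on beads captured active ribosomes, measured the mRNA fragments they protect (footprints), with 2 libraries per guide and assay, 8 in all. The sources used here do not say whether the cells were a single clone or a pool, or whether the replicates came from independent cultures. The p-values therefore cover only how far these libraries scatter. METTL13 is a methyltransferase that acts on the translation elongation factor eEF1A, and the study asked how mRNA and translation differ when METTL13 is targeted.

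EGFR, ERBB2 and ERBB3 are cell surface receptors that pair when a ligand binds and switch on the RAS to ERK and PI3K pathways. EGFR binds all 4 ligands named above, ERBB2 has no known ligand and acts as a partner, and ERBB3 binds neuregulins and has a weak kinase. The ligands are made as membrane-anchored precursors that proteases cut free, and AREG, EREG and HBEGF are among the genes that serum and ERK signalling induce. In pancreatic cancer cells these ligands are known to act on the cells that secrete them.

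Footprint libraries totalled 8916807 to 9837253 counts in sgMETTL13 and 6063885 to 8181707 in sgControl, and RNA libraries 39899139 to 48353722 in sgMETTL13 and 20860953 to 36436106 in sgControl. Values below are counts scaled to library size with TMM factors (CPM). METTL13 itself read 20.1 and 26.2 CPM of footprints in sgMETTL13, against 65.1 and 57.7 CPM in sgControl (log2 fold change -1.41, SE 0.164, edgeR adjusted p = 6.38e-07). Its mRNA read 25.2 and 35.05 CPM in sgMETTL13, against 89.7 and 71.4 CPM in sgControl, a log2 fold change of -1.42 (SE 0.406) that did not pass (edgeR adjusted p = 0.9999) but did without sgMETTL13 replicate 2 (-1.68). All 6 epithelial markers checked were above 1 CPM in every library. The leukocyte list summed to 1376 to 1377 CPM of footprints in sgMETTL13 and 1430 to 1550 CPM in sgControl, of which LCP1, a gene that carcinoma cells also express, made up 1374 and 1375 CPM in sgMETTL13 and 1428 and 1549 CPM in sgControl. Of the 4 leukocyte genes counted, PTPRC had at most 1 footprint and CD74 at most 2 in any library, and CD68, a lysosomal protein that other cells also make, had 13 and 17 in sgMETTL13 and 8 and 7 in sgControl. In mRNA the list summed to 541 to 845 CPM in sgMETTL13 and 705 to 801 CPM in sgControl, again mostly LCP1, with CD68 at 20.4 and 32.3 CPM in sgMETTL13 and 25.2 and 49.3 CPM in sgControl. The fibroblast list summed to 21.6 to 21.7 CPM of footprints in sgMETTL13 and 22.2 to 25.1 CPM in sgControl, most of it COL1A1. Its mRNA summed to 23.7 to 32.9 CPM in sgMETTL13 and 27.2 to 32.9 CPM in sgControl. No endothelial marker exceeded 1 CPM in every library. In bulk libraries such as these, fewer cells that make a gene and less of its RNA per cell cannot be told apart.

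Footprints of the ligand genes AREG and EREG rose in sgMETTL13, by 1.56 and 1.46 times, and no receptor gene changed past the test. Both genes lie on the long arm of chromosome 4 with the other EGF family ligand genes EPGN and BTC, in the order EPGN, EREG, AREG, BTC, and 56386 bases separate the end of EREG from the start of AREG (RefSeq, GRCh38.p14). Footprints of all 4 ligands were higher in both sgMETTL13 libraries than in both sgControl libraries, as for 32% of all genes tested. For that reason the upstream sequences of AREG and EREG are shown with those of HBEGF and TGFA. Each runs 5′ to 3′ over the 250 bases before the RefSeq start site (GRCh38.p14). Capitals mark TATAAA, the TATA box core, and TGACGTCA, the palindromic cAMP response element, searched on both strands together with the AP-1 site TGANTCA, of which none occurs in these windows.
AREG chr4:74444886-74445135 (+ strand): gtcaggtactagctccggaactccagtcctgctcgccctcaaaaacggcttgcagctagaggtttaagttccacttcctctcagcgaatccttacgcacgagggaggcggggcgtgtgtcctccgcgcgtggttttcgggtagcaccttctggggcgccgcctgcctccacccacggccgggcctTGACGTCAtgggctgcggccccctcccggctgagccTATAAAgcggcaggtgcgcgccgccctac
EREG chr4:74364895-74365144 (+ strand): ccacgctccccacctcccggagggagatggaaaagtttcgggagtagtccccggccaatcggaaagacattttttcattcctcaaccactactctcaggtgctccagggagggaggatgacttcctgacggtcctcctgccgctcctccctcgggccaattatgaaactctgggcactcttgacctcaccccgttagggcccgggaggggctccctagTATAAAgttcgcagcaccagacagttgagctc
HBEGF chr5:140346604-140346853 (- strand): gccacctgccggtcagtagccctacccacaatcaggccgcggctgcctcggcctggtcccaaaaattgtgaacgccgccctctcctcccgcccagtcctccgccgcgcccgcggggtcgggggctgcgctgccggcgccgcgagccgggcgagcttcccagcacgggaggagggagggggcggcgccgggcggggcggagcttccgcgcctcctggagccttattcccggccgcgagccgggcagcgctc
TGFA chr2:70553827-70554076 (- strand): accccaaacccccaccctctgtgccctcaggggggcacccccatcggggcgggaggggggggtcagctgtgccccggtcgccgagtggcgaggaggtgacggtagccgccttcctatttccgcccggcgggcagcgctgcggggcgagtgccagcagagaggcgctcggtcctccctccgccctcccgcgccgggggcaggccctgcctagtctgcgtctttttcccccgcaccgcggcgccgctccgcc

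TATAAA stands 29 to 24 bases before the start of AREG and 32 to 27 bases before that of EREG, and in none of the 4 other members that had a window. Of 11909 upstream windows of the same length from counted protein-coding genes, 6.66% hold TATAAA, 2.69% hold TGACGTCA and 4.14% hold TGANTCA. TGACGTCA occurs in AREG alone of these 6 genes, 65 to 58 bases before its start. ERBB2 holds TGANTCA once. The GC box core GGGCGG, found in 63.9% of all windows, occurs 5 times in HBEGF (including a pair of sites that share a base), 3 times in TGFA, 2 times in EGFR, once in AREG and not in EREG or ERBB2. GC content was 65.2% in AREG and 58.0% in EREG, against 76.4% in HBEGF, 75.6% in TGFA, 73.6% in EGFR and 65.6% in ERBB2. The median over all windows was 64.0%. ERBB3 had no window in the table. These matches describe letters and not binding.

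**Figure D1:**
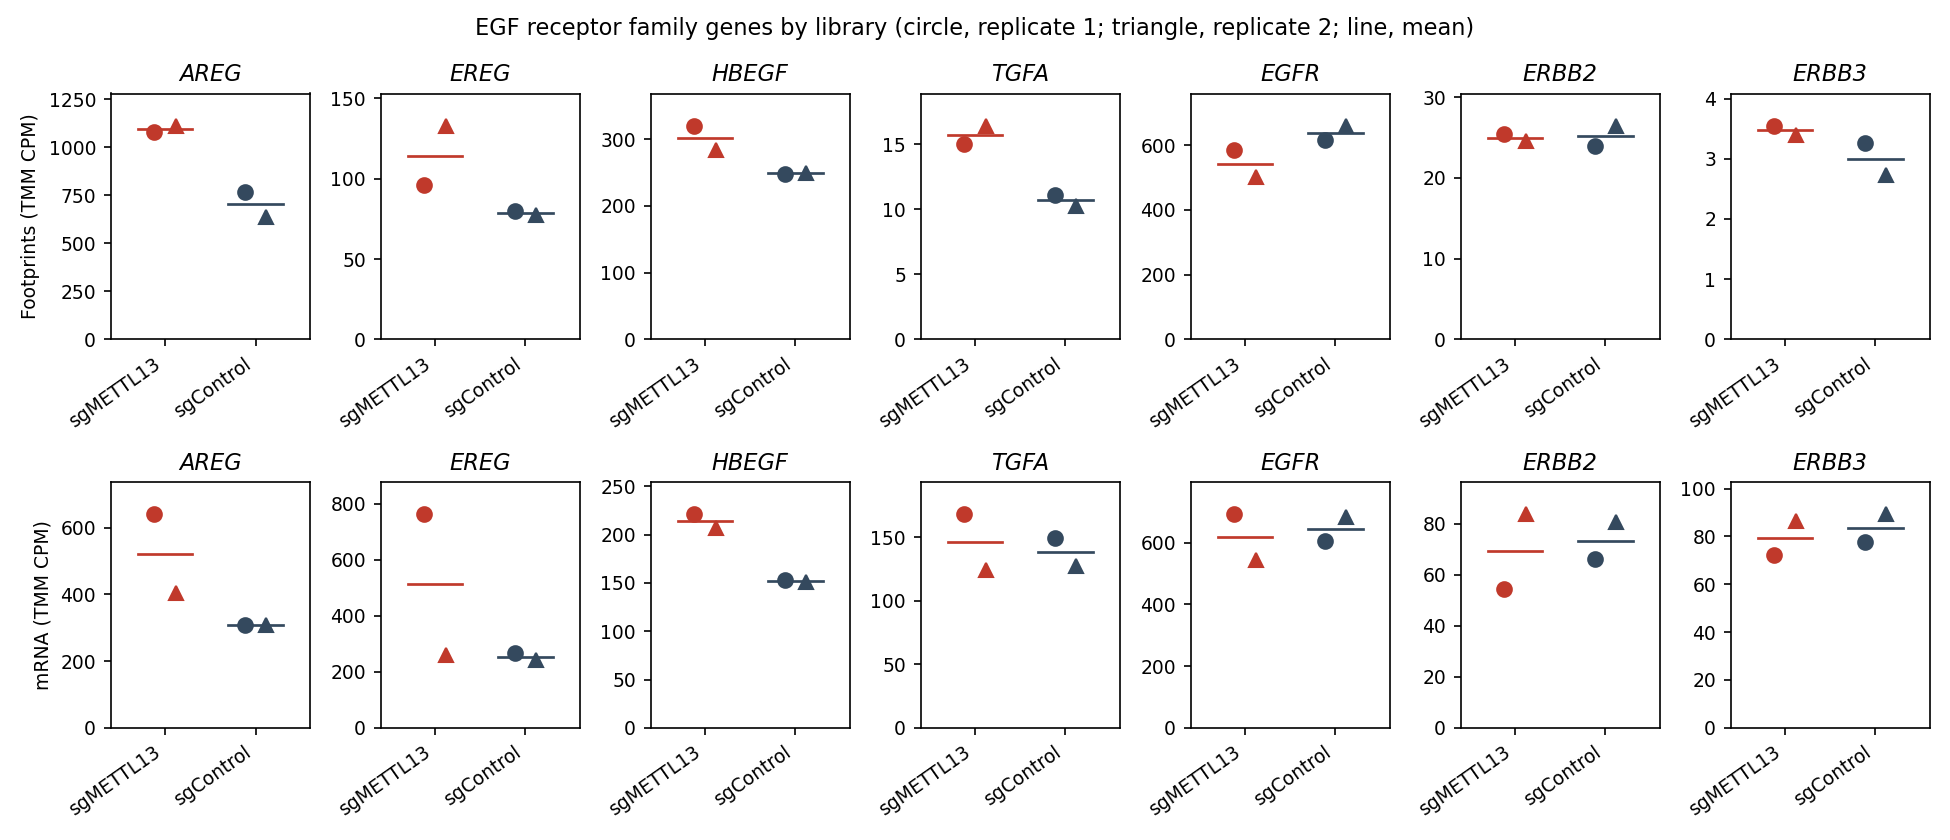
TMM-normalised CPM (vertical axes, each from 0) of the 7 genes in footprints (top) and mRNA (bottom), with sgMETTL13 left of sgControl; circles are replicate 1, triangles replicate 2 and lines the mean of 2 libraries. AREG footprints read 1079 and 1113 CPM in sgMETTL13 against 769 and 636 CPM in sgControl, and EREG mRNA in sgMETTL13 stood at 763 CPM for replicate 1 but 261 CPM for replicate 2.

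AREG encodes amphiregulin, an EGFR ligand that binds more weakly than EGF itself. AREG (chromosome 4, 74445136 to 74455005) had 1079 and 1113 CPM of footprints in sgMETTL13, against 769 and 636 CPM in sgControl, from 10632 and 10147 counts against 6360 and 3726. Both sgMETTL13 libraries lay above both sgControl libraries. The means were 1096 ± 23.8 CPM in sgMETTL13 and 703 ± 93.4 CPM in sgControl (SD, n = 2 each). The log2 fold change was 0.64 with SE 0.121, past the quasi-likelihood test of edgeR, adjusted across all tested genes (adjusted p = 0.000448). AREG kept its call without any 1 footprint library, with fold changes of 0.51 to 0.78, and lost it in the model of all 8 libraries together (adjusted p = 0.502).

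EREG encodes epiregulin, which activates EGFR and ERBB4. EREG (chromosome 4, 74365145 to 74388749) had 95.8 and 133 CPM of footprints in sgMETTL13, against 79.6 and 77.6 CPM in sgControl. The sgMETTL13 libraries were again the higher ones, but they lay far apart. The means were 114 ± 26.4 CPM in sgMETTL13 and 78.6 ± 1.48 CPM in sgControl (SD, n = 2 each), and the log2 fold change was 0.54, SE 0.149 (edgeR adjusted p = 0.00991). Without sgMETTL13 replicate 2 it was 0.29 and did not pass (adjusted p = 0.436), and the model of all 8 libraries also ended the call (adjusted p = 0.764).

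HBEGF and TGFA did not pass the footprint test. Their sgMETTL13 libraries also lay above both sgControl libraries, as for 32% of all genes tested. HBEGF, the heparin-binding ligand whose precursor is also the diphtheria toxin receptor, lies on chromosome 5 at 140332843 to 140346603. It read 321 and 284 CPM in sgMETTL13 and 248 and 250.1 CPM in sgControl. Its log2 fold change was 0.28 with SE 0.124 (edgeR adjusted p = 0.103), with a 95% interval of 0.027 to 0.53, and it was 0.18 without sgMETTL13 replicate 1 and 0.37 without sgMETTL13 replicate 2.

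TGFA, the gene of TGF-alpha (chromosome 2, 70447284 to 70553826), read 15.0 and 16.4 CPM of footprints in sgMETTL13, against 11.1 and 10.2 CPM in sgControl. These rest on 148 and 150 counts in sgMETTL13 and 92 and 60 counts in sgControl. The log2 fold change was 0.55 with SE 0.206 and a 95% interval of 0.13 to 0.97, close to that of EREG, and it narrowly missed the threshold (edgeR adjusted p = 0.0544). With no filter on low counts TGFA passed (adjusted p = 0.0373), and its change lay between 0.49 and 0.62 with any 1 footprint library left out.

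The receptor genes showed no call in footprints. EGFR (chromosome 7, 55019017 to 55211628) read 584 and 501 CPM in sgMETTL13, against 615 and 661 CPM in sgControl. It was the only member with both sgMETTL13 libraries below both sgControl libraries, which was so for 32% of all tested genes. The log2 fold change was -0.23 with SE 0.122, which did not pass (edgeR adjusted p = 0.173), and its 95% interval ran from -0.48 to 0.016. It read -0.35 without sgMETTL13 replicate 1 and -0.12 without sgMETTL13 replicate 2, and did not pass in either.

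ERBB2 (chromosome 17, 39688094 to 39728658) read 25.4 and 24.6 CPM of footprints in sgMETTL13 and 23.9 and 26.5 CPM in sgControl. The groups overlapped, and the log2 fold change of -0.0087 had a 95% interval of -0.36 to 0.34. ERBB3 (chromosome 12, 56080108 to 56103505) had 35 and 31 footprint counts in sgMETTL13 and 27 and 16 in sgControl, or 3.55 and 3.40 CPM against 3.26 and 2.73 CPM. The sgMETTL13 libraries were slightly higher, with a log2 fold change of 0.20 and a 95% interval of -0.46 to 0.85, and the value was 0.086 without sgControl replicate 2 and 0.35 without sgControl replicate 1. That interval includes both no change and a change of the size seen in AREG, so neither could be told apart with these counts.

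Among the 7 genes, 2 rose and 0 fell in footprints, where 8.94% of the 10714 genes tested rose and 12% fell, 21% in all. The log2 fold change was above 0 for 5 members and for 51% of all genes tested. Both sgMETTL13 libraries lay above both sgControl libraries for 5 members and below for 1, and 32% of all tested genes were above and 32% below. The median log2 fold change was 0.28 over the members and 0.0088 over all genes tested. By size of fold change AREG ranked 672 from the top, TGFA 940, EREG 969, HBEGF 2597 and ERBB3 3405 of 10714, with ERBB2 at 5545 and EGFR at 7634. The 4 ligands and ERBB3 thus stood in the upper part of the ranking, ERBB2 near the middle and EGFR in the lower part. Of the 7 genes only AREG and EREG passed the test.

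**Figure D2:**
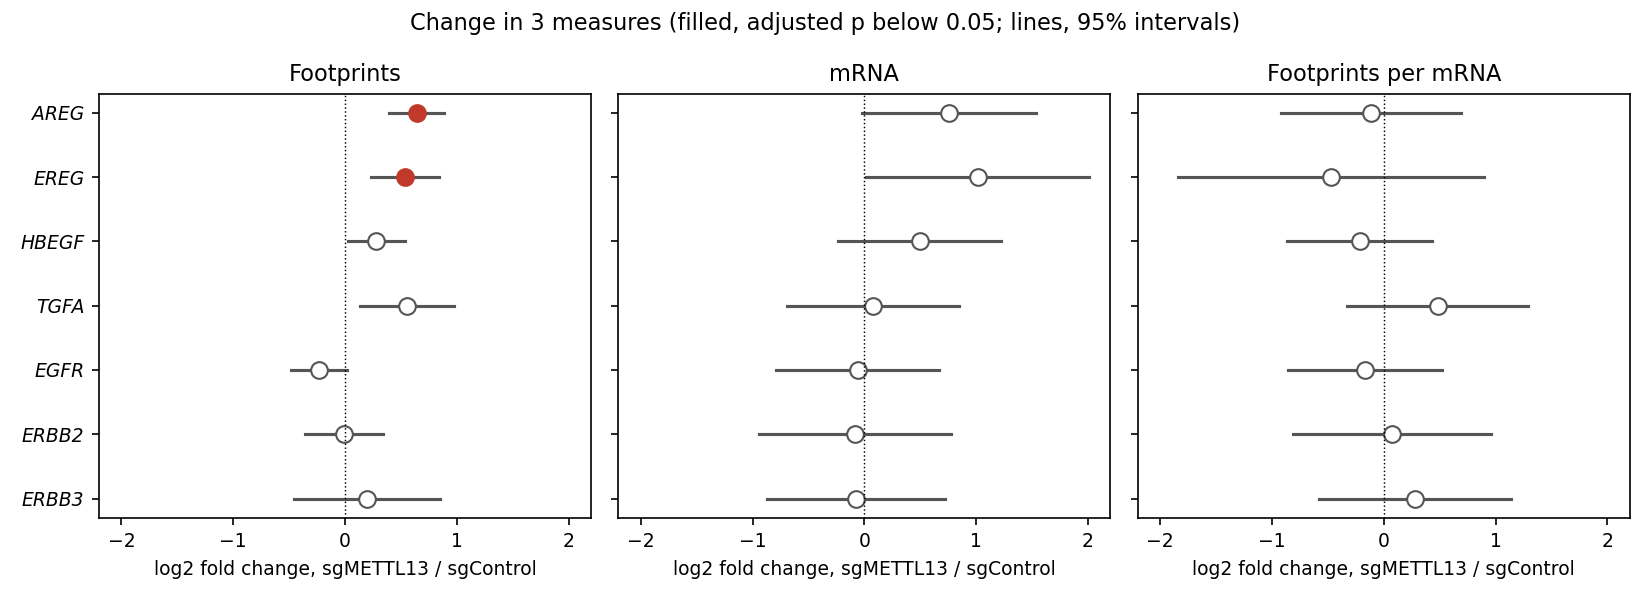
Log2 fold change of sgMETTL13 over sgControl (horizontal axes) in footprints, mRNA and footprints per mRNA for the 7 genes, with 95% intervals as lines and filled points for adjusted p below 0.05. In footprints AREG at 0.64 and EREG at 0.54 are filled, and all intervals for footprints per mRNA include 0.

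No member passed the test in mRNA, where edgeR called 0% of 12468 genes. At an unadjusted p below 0.05 there were 100 genes, and neither DESeq2 nor limma voom called any. Log2 fold changes were above 0 for 4 members and for 55.6% of all genes. AREG mRNA read 640.5 and 403 CPM in sgMETTL13, against 309 and 308 CPM in sgControl. Both sgMETTL13 libraries were higher but differed widely, and the log2 fold change of 0.76 had SE 0.356 and a 95% interval of -0.019 to 1.54. EREG mRNA read 763 and 261 CPM in sgMETTL13, against 267 and 240.2 CPM in sgControl. Only sgMETTL13 replicate 1 stood high there, the groups overlapped, and the log2 fold change was 1.01 with SE 0.457 (edgeR unadjusted p = 0.0471, adjusted p = 0.9999).

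HBEGF mRNA read 221 and 207 CPM in sgMETTL13 and 153 and 151 CPM in sgControl. These groups did not overlap and the replicates lay close, at 214 ± 10.2 CPM in sgMETTL13 and 152 ± 1.54 CPM in sgControl (SD, n = 2 each). The log2 fold change of 0.50 had SE 0.334 and a 95% interval of -0.24 to 1.23, and it did not pass (edgeR adjusted p = 0.9999). It was 0.48 to 0.54 with any 1 RNA library left out. AREG and HBEGF were the 2 members whose sgMETTL13 libraries both lay above sgControl in mRNA, as 5.11% of all tested genes did. No member had both below, as 6.84% of all genes did.

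TGFA mRNA read 168 and 124 CPM in sgMETTL13 and 149.8 and 128 CPM in sgControl (log2 fold change 0.076, SE 0.353). EGFR mRNA read 693 and 542 CPM in sgMETTL13, against 605 and 684 CPM in sgControl (-0.061, SE 0.334). ERBB2 mRNA read 54.5 and 83.8 CPM in sgMETTL13 and 66.3 and 80.5 CPM in sgControl (-0.086, SE 0.393), and ERBB3 mRNA read 72.5 and 86.4 CPM in sgMETTL13 and 77.6 and 89.4 CPM in sgControl (-0.072, SE 0.365). The groups overlapped in all 4 of these genes, and intervals of this width do not show that the mRNA levels were equal.

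The mRNA results for AREG and EREG differed with the sgMETTL13 RNA library left out. Over all genes, the log2 difference between replicates had an SD of 0.812 in sgMETTL13 RNA and 0.340 in sgControl RNA, against 0.254 in sgMETTL13 footprints and 0.298 in sgControl footprints. Without sgMETTL13 RNA replicate 2, AREG (log2 fold change 1.05, edgeR adjusted p = 0.00634) and EREG (1.59, adjusted p = 8.56e-06) both passed in mRNA, among 2509 genes that then passed. Without sgMETTL13 RNA replicate 1 they stood at 0.45 and 0.11 and did not pass (adjusted p = 0.848 and 0.963). EREG in particular had its high footprint value in sgMETTL13 replicate 2 and its high mRNA value in sgMETTL13 replicate 1.

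**Figure D3:**
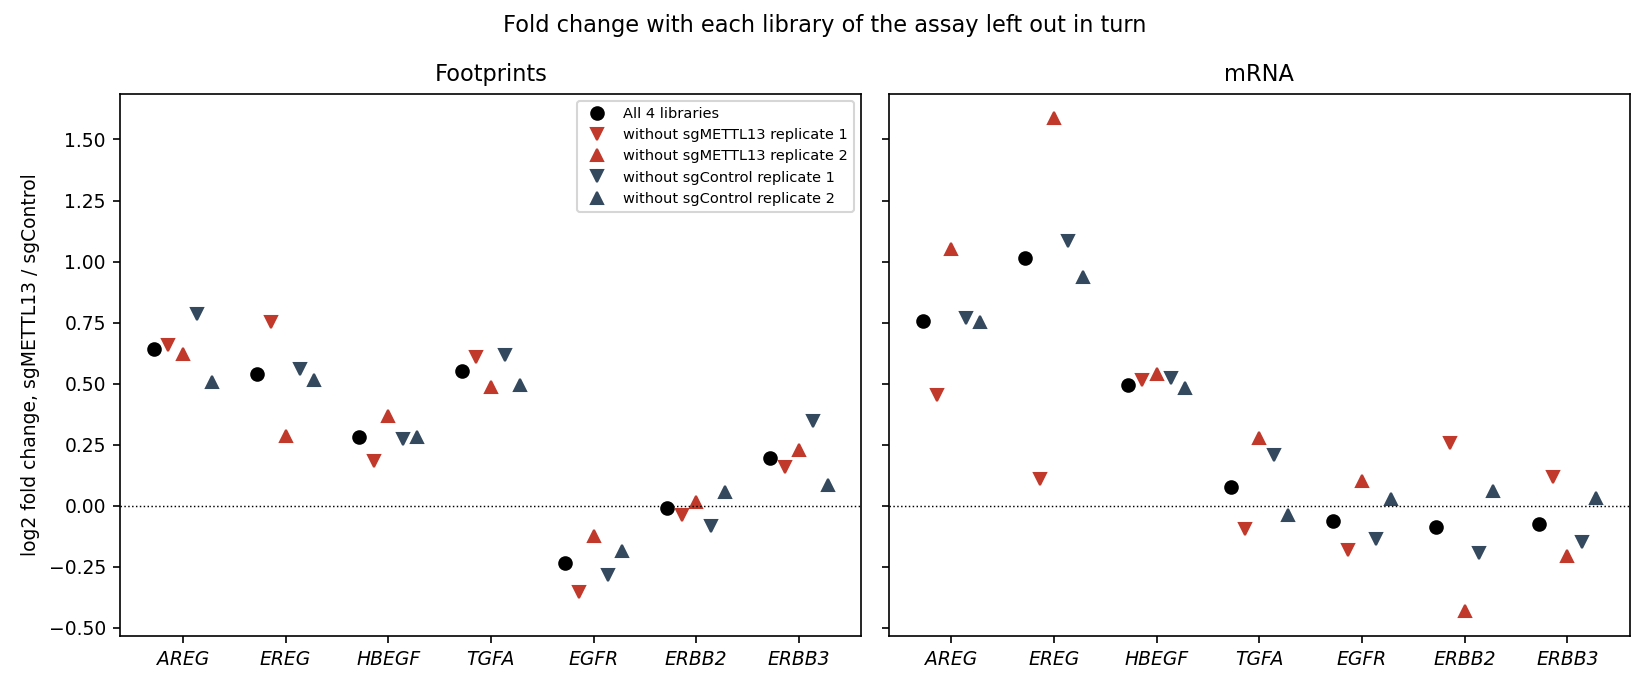
Log2 fold change of sgMETTL13 over sgControl (vertical axis) for each gene in footprints (left) and mRNA (right), with all 4 libraries of the assay (black) and with each one left out. AREG footprints stay between 0.51 and 0.78, whereas EREG mRNA runs from 0.11 without sgMETTL13 replicate 1 to 1.59 without sgMETTL13 replicate 2.

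Footprints per mRNA, a measure of translational efficiency, did not differ past the test for any member. Counts were scaled within each assay, so a change shared by all genes would not show in these ratios, and protein was not measured. edgeR called 0% of the 10446 genes tested (352 genes, or 3.37%, had an unadjusted p below 0.05), DESeq2 called 4 and limma voom 0. The ratio of mean footprint CPM to mean mRNA CPM was 2.10 in sgMETTL13 and 2.28 in sgControl for AREG, a log2 difference of -0.12 (SE 0.356). For HBEGF it was 1.41 in sgMETTL13 and 1.64 in sgControl (-0.21, SE 0.286), and for EREG 0.224 in sgMETTL13 and 0.310 in sgControl (-0.47, SE 0.603). The median of all genes was -0.13 on this scale, so AREG lay close to it, and the log2 difference was above 0 for 3 members and for 38.8% of all genes. TGFA had the largest value of the 7, with ratios of 0.108 in sgMETTL13 and 0.0770 in sgControl and a log2 difference of 0.48 (SE 0.356, 95% interval -0.33 to 1.29).

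Among the receptors the ratio was 0.879 in sgMETTL13 and 0.990 in sgControl for EGFR, 0.361 in sgMETTL13 and 0.343 in sgControl for ERBB2, and 0.0438 in sgMETTL13 and 0.0359 in sgControl for ERBB3. The log2 differences were -0.17 for EGFR (95% interval -0.86 to 0.52), 0.074 for ERBB2 (-0.81 to 0.96) and 0.28 for ERBB3 (-0.58 to 1.13). Without sgMETTL13 RNA replicate 2 the EREG difference was -1.05, and without sgMETTL13 RNA replicate 1 it was 0.43. The direction for EREG thus differed with the RNA library left out. TGFA read 0.65 without sgMETTL13 RNA replicate 1 and 0.28 without replicate 2, and it passed in neither (adjusted p = 0.157 and 0.561).

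Of the other receptors and ligands of the family, 3 were tested in footprints and 6 in mRNA, and none passed. NRG1, a neuregulin that binds ERBB3, read 167 and 184 CPM of footprints in sgMETTL13 and 181 and 149 CPM in sgControl (log2 fold change 0.084, SE 0.133). BTC, the gene of betacellulin, read 4.57 and 6.80 CPM of footprints in sgMETTL13 and 4.35 and 5.98 CPM in sgControl. BTC mRNA read 22.9 and 8.50 CPM in sgMETTL13, against 8.21 and 7.13 CPM in sgControl (log2 fold change 1.03, SE 0.527). The high library was sgMETTL13 replicate 1, as for EREG. Over all genes the sgMETTL13 RNA replicates differed widely (SD of the log2 difference 0.812). EGF, the ligand that gave the family its name, had 14 and 12 footprint counts in sgMETTL13 and 8 and 2 in sgControl (log2 fold change 0.95, SE 0.521, edgeR adjusted p = 0.199).

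The remaining family genes counted were at or near the detection floor and were not tested in footprints. ERBB4 had 1 to 2 footprint counts in every library, and NRG2 had 3 and 0 in sgMETTL13 and 7 and 5 in sgControl. NRG4 had at most 1. EPGN, the fourth ligand gene of the chromosome 4 group, had no footprint in any library, which allows up to 3 counts or 0.512 CPM in the shallowest footprint library, and its mRNA had 16 and 5 counts in sgMETTL13 and 3 and 5 in sgControl. NRG3 was on the list but not among the genes counted.

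Of the family and pathway genes beyond the 7 members, a share close to that of all genes was called in footprints. Over the 5 pathway lists 61 genes were tested, of which 8 rose and 6 fell. That is 23%, against 21% of all 10714 genes, of which 8.94% rose and 12% fell. The lists had a median log2 fold change of 0.0047 against 0.0088 over all genes tested. The counts rested on single libraries: 0 rose and 6 fell without sgMETTL13 replicate 2, 1 rose and 3 fell without sgControl replicate 2, and 12 rose and 8 fell without sgControl replicate 1. With DESeq2 5 rose and 5 fell, and all of these calls, with that of METTL13, ended in the model of all 8 libraries. None of the 65 listed genes tested in mRNA passed there. Among 7 tested genes of ligand release, 1 rose and 2 fell (median -0.29), or 42.9% called against 21% of all genes. ADAM9, a membrane protease that can shed HBEGF, read 206 and 207 CPM in sgMETTL13 and 161 and 156 CPM in sgControl, so its log2 fold change was 0.38 ± 0.127 (SE) and passed (edgeR adjusted p = 0.0317). FRMD8, which stabilises the iRhom partners of the sheddase ADAM17, read 43.8 and 48.3 CPM in sgMETTL13 and 83.9 and 104 CPM in sgControl (-1.02, SE 0.148), and its call held without any 1 footprint library. RHBDL2, a rhomboid protease of the plasma membrane, had 10 and 14 counts in sgMETTL13 against 22 and 30 in sgControl (-1.55, SE 0.395). ADAM9 lost its call without sgControl replicate 2 (0.35) or without sgMETTL13 replicate 1 (0.38) or 2 (0.37), and RHBDL2 without sgControl replicate 2 (-1.07) or sgMETTL13 replicate 1 (-1.28) and with DESeq2 (adjusted p = 0.0673).

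Of 16 negative regulators of the receptors 3 rose and 1 fell (median 0.073), or 25% called against 21% of all genes. ERRFI1, the feedback inhibitor MIG6 that binds the EGFR kinase, read 57.7 and 75.1 CPM of footprints in sgMETTL13 and 40.4 and 35.9 CPM in sgControl, a log2 fold change of 0.80 ± 0.159 (SE) that passed in edgeR (adjusted p = 0.000703). CBLB, a ubiquitin ligase of activated receptors, rose by 0.58 on the log2 scale (SE 0.204), at 19.2 and 19.5 CPM in sgMETTL13 and 15.2 and 10.2 CPM in sgControl. The counts of PTPRJ, a receptor phosphatase, were 24 and 25 in sgMETTL13 and 8 and 5 in sgControl, and its log2 fold change was 1.48 (SE 0.426). STUB1, the chaperone-linked ubiquitin ligase CHIP, fell, with 48.3 and 53.2 CPM in sgMETTL13 against 67.3 and 85.9 CPM in sgControl (-0.59, SE 0.151). Calls were lost by ERRFI1 without sgMETTL13 replicate 2 (0.60), by STUB1 without sgMETTL13 replicate 1 (-0.53) or sgControl replicate 2 (-0.41), and by CBLB without sgMETTL13 replicate 1 (0.59) or 2 (0.57) or sgControl replicate 2 (0.34), while it read 0.92 without sgControl replicate 1. PTPRJ lost its call without sgMETTL13 replicate 2 (1.39), sgControl replicate 1 (1.58) or sgControl replicate 2 (1.40). With DESeq2 neither PTPRJ (adjusted p = 0.171) nor CBLB (adjusted p = 0.146) passed.

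Of 17 genes of receptor endocytosis and sorting 3 rose and 2 fell (median 0.073), or 29.4% called against 21% of all genes, and no rise was called without sgMETTL13 replicate 2 or without sgControl replicate 2. CLTC, the clathrin heavy chain, read 1342 and 1448 CPM in sgMETTL13 and 1072 and 898 CPM in sgControl, a log2 fold change of 0.50 (SE 0.121). The log2 fold change was 0.50 (SE 0.143) for RAB11A, a recycling GTPase, and 0.67 (SE 0.185) for STAM, and all 3 passed with both sgMETTL13 libraries above both sgControl libraries. The clathrin adaptor EPN1 read 103.5 and 103.4 CPM in sgMETTL13, against 148 and 195 CPM in sgControl (-0.72, SE 0.140), and HGS, the partner of STAM in sorting ubiquitinated receptors, 221 and 219 CPM in sgMETTL13 against 295 and 369 CPM in sgControl (-0.59, SE 0.129). EPN1 and HGS passed without any 1 footprint library. CLTC, RAB11A and STAM did not pass without sgMETTL13 replicate 2 (0.45, 0.33 and 0.56) or sgControl replicate 2 (0.37, 0.41 and 0.60). Among 18 adaptors and effectors PIK3CA, a catalytic subunit of PI3K, rose by 0.50 on the log2 scale (SE 0.178) and the adaptor CRK had a log2 fold change of -1.11 (SE 0.239), with a list median of -0.047 and 11.1% called against 21% of all genes. PIK3CA was not called without sgMETTL13 replicate 1 (0.55) or 2 (0.45) or sgControl replicate 2 (0.33), nor CRK without sgControl replicate 2 (-0.74). DESeq2 also did not call PIK3CA (adjusted p = 0.135).

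**Figure D4:**
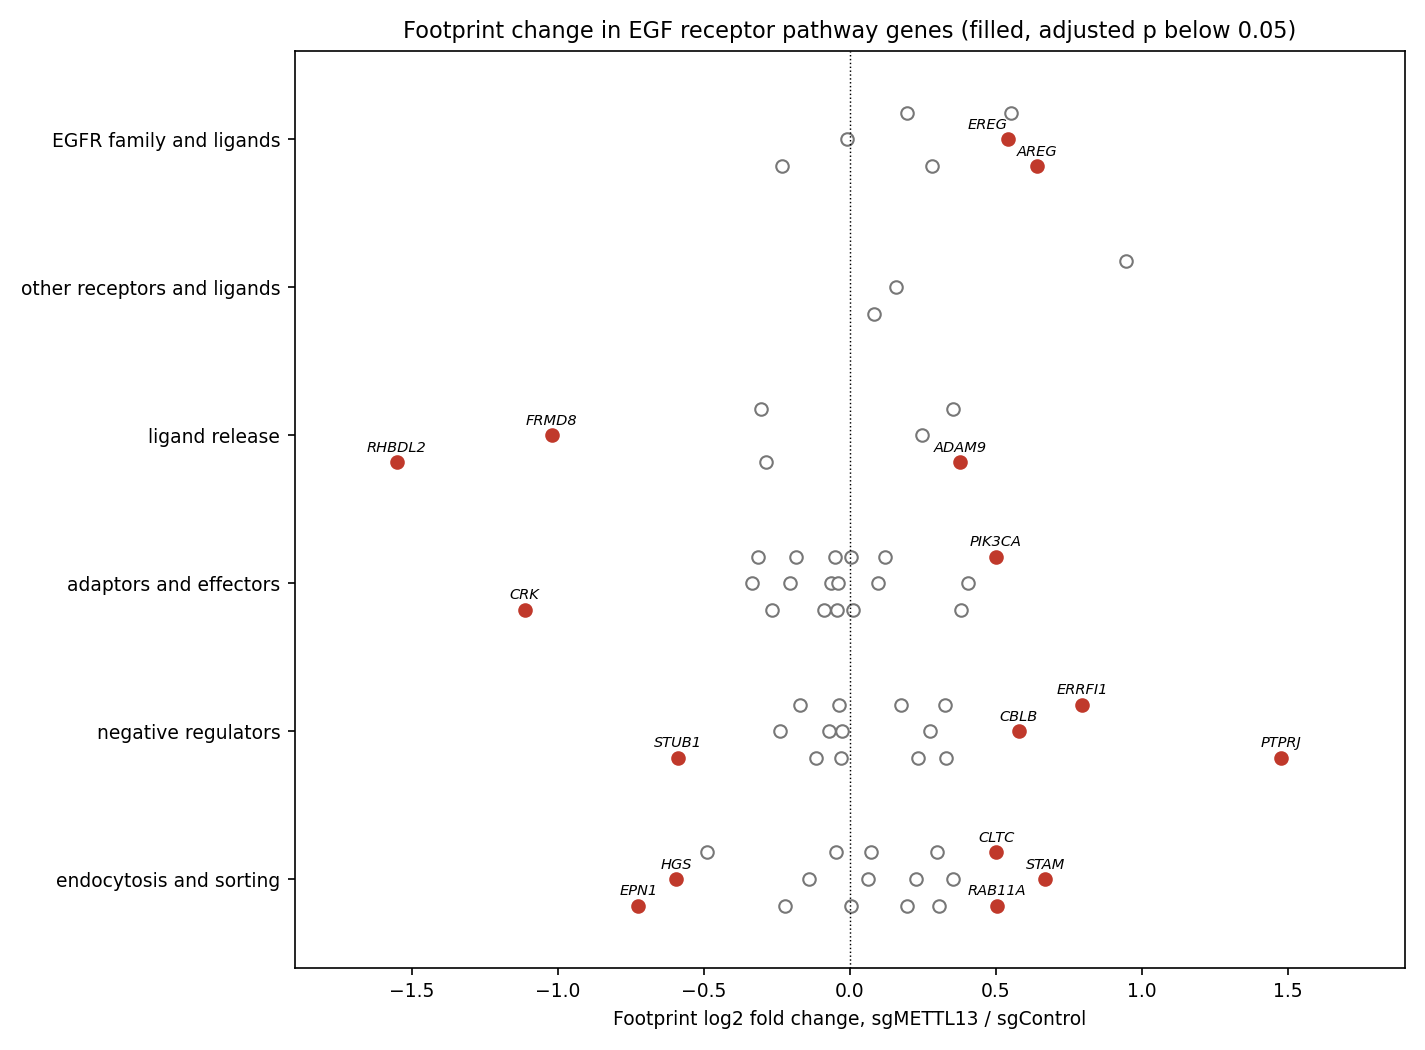
Footprint log2 fold change of sgMETTL13 over sgControl (horizontal axis) for each tested gene of the family and of 5 pathway lists; filled and named points passed at adjusted p below 0.05. AREG and EREG are the filled points of the family, and the other lists hold 8 filled points above 0 and 6 below.

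Profiles over the 8 libraries were compared by the root-mean-square distance between log2(CPM + 1) values centred on each gene's mean within each assay, among genes averaging at least 5 CPM in both assays. The 2 nearest of 8162 genes were ENC1 (0.109) and EEF1AKMT2 (0.113) for AREG, KRIT1 (0.0987) and CHMP2B (0.102) for EREG, KLF6 (0.0830) and YWHAE (0.0939) for HBEGF, and MCCC1 (0.0561) and PSMC2 (0.0591) for TGFA. For EGFR they were RNF115 (0.0412) and ITSN1 (0.0447), and for ERBB2 IGSF9 (0.0260) and DDX11 (0.0273). ERBB3, which is itself below 5 CPM of footprints, lay nearest to GINS2 (0.0342) and TUBGCP3 (0.0400). Within the family AREG was nearest to HBEGF (0.228, with 284 genes nearer to AREG) and ERBB2 to ERBB3 (0.140, with 1101 genes nearer to ERBB2). The farthest pair was ERBB2 and EREG (0.680). Each distance counts the difference between replicates along with that between guides.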

How the data were processed

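Unnormalised counts for each gene symbol in 8 libraries were deposited by the authors. The submitters' processing notes name Bowtie 1.2.2, cutadapt 1.18, featureCounts, HISAT2 2.0.4, UMI-tools and build hg38, in no stated order. Annotation, strand setting and handling of reads with several matches are not given in the sources used here. EGFR overlaps EGFR-AS1, ERBB2 overlaps MIEN1, and EREG and TGFA overlap non-coding genes, so reads of these cannot be told apart from those genes without strand. All 14668 symbols matched RefSeq (GRCh38.p14), the source of coordinates and upstream sequences; EGFR and TGFA have 2 windows each there, of which that at the 5′ end of the gene was used.

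The quasi-likelihood F test was run after TMM scaling and filterByExpr at its defaults (edgeR 4.0.16 under R 4.3.3), on the 4 libraries of each assay apart. Efficiency was the interaction of assay and guide over all 8 libraries. P-values were adjusted by Benjamini-Hochberg over all genes tested, with 0.05 as threshold. Fits were also run on counts simulated with the same spread in every library, which the RNA libraries here did not have. That run is no support for the mRNA or efficiency tests. Intervals are log2 fold change plus or minus the 95% t quantile times SE. edgeR's common coefficient of biological variation came to 0.0992 in footprints, 0.337 in mRNA and 0.263 for efficiency. Alternatives were DESeq2 1.42.0, limma 3.58.1 voom, other size factors, no filter, a replicate block, all 8 libraries in one model, and each library left out. Family members, pathway lists and the naming rule (all members, METTL13, all further family ligands and receptors counted, every pathway gene that passed in footprints, and for each member the 2 genes of most like profile) were chosen with earlier results of these data known. Floors and intervals cover counting error or library spread only.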

Additional observations from a re-analysis of the deposited data

How the results depend on the processing

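AREG footprints kept direction and call in 12 of 13 alternatives (log2 fold change 0.51 to 0.78) and EREG in 11 of 13 (0.29 to 0.75). These 13 include the crossed replicate block given below, which was not planned and kept both calls. Calls among the 7 genes numbered 0 in the model of all 8 libraries, where no gene passed, and 1 to 2 with each footprint library left out. Of all genes 2245 passed in footprints, 1371 with DESeq2 and 701 (without sgMETTL13 replicate 2) to 3018 with each library left out, with 824 without sgControl replicate 2. In mRNA 1 gene passed with upper-quartile factors, and the range with each library left out was 0 to 2509 genes and 0 to 2 members, with the highest of both without sgMETTL13 replicate 2. In efficiency DESeq2 called 4 genes, and the range with each library left out was 0 to 1471 genes and 0 to 1 members, the highest without sgMETTL13 RNA replicate 2, with 453 genes without sgMETTL13 RNA replicate 1. A lone library left in a group is assumed to vary like the other group. Replicate numbers are not stated to pair samples, and deviations of same-numbered footprint libraries of the 2 guides correlated at -0.212, of RNA libraries at 0.442, and of RNA with footprint libraries at 0.182 in sgControl and 0.0125 in sgMETTL13. With a replicate block AREG read 0.65 and EREG 0.52 (edgeR adjusted p = 0.0212), both called, and no member's call changed, though ADAM9 (0.38), PIK3CA (0.51) and CBLB (0.60) did not pass; 1729 genes passed. PIK3CA (0.53) and CBLB (0.61) also did not pass with library totals alone. A crossed replicate block, added after seeing the data, called 4 members, HBEGF and TGFA besides AREG and EREG. It called 3220 of all genes, against 2245 in the main fit.

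Directions that turned were all of values not past the main edgeR test, and the cause was not tested. ERBB2 footprints read 0.024 with library totals alone, 0.0093 with no filter, and -0.083 to 0.056 with each library left out. TGFA mRNA read -0.021 with upper-quartile factors and -0.095 to 0.28 with each library left out, EGFR mRNA -0.18 to 0.10, ERBB2 mRNA -0.43 to 0.26 and ERBB3 mRNA -0.21 to 0.12. AREG efficiency read 0.0076 with DESeq2 and -0.41 to 0.19 with each library left out, EREG efficiency -1.05 to 0.43 and ERBB2 efficiency -0.27 to 0.42. ERBB3 footprints, which rested on 16 to 35 counts per library, kept their direction in all 13 alternatives.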
